A study of Populus ussuriensis with 8 samples.

Results

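The question addressed here was whether methyl jasmonate (MeJA) altered how the transcriptome of a cut poplar stem moved between 0.5 h and 1 h. For each gene the quantity was an interaction, the change over time in MeJA-treated cuttings minus the change over time in untreated cuttings. It was measured in all 8 libraries of the series, on the log2(FPKM + 1) scale, for the 24347 genes of 36385 listed that reached at least 1 FPKM in at least 2 libraries. FPKM are sequenced fragments expressed relative to the length of the transcript and to the size of the library. The unit is not stated with the values and was inferred from them. A gene's value was the sum over its transcripts. The other 12038 genes listed did not reach that level and were not tested.

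The material was the basal end of in vitro stem cuttings of Populus ussuriensis, the place where adventitious roots later form. The 4 groups, with 2 libraries each, were MeJA 1 h, MeJA 0.5 h, untreated 1 h and untreated 0.5 h. MeJA was given at 1 µM in the culture medium, and every cutting, treated or not, had been cut from its parent plant. The labels name no separate plants or cultures for the replicates and give different ages for the source plants, so the p-values rest on differences between libraries that may be technical.

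Jasmonates are lipid-derived hormones that plants make within minutes of wounding. In the cell the active conjugate of jasmonic acid brings repressor proteins of the JAZ family to the receptor COI1, the repressors are degraded, and transcription factors such as MYC2 are released. A cutting is itself a wound, so untreated cuttings can carry a jasmonate response of their own. In work on cuttings, jasmonates are known both as wound signals and as modulators of adventitious rooting.

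The files list poplar Potri identifiers and do not pair them with gene names or descriptions. No gene is therefore given a function here, the tissue could not be checked against marker genes, and the pathway and marker lists that had been drawn up by description were not used. Chromosome numbers below are those written in the identifiers. In bulk tissue, fewer cells of a type and less RNA per cell cannot be told apart.

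Spearman correlations across genes were 0.983 to 0.987 between replicates, 0.981 to 0.986 between treatments at one time point, and 0.892 to 0.924 between the times. Values summed to 549538 to 577002 FPKM per library. Read counts were not used here, so depth is unknown and no counting interval is given. Batches of harvest or sequencing were not known.

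No gene passed the test of the interaction. In limma, 0 of 24347 genes (0%) had a Benjamini-Hochberg adjusted p under 0.05, and the smallest adjusted p was 0.219. An unadjusted p under 0.05 was found for 2268 genes (9.32%), of which 1428 (5.87%) had a positive and 840 (3.45%) a negative interaction. A positive interaction means a larger rise or a smaller fall with MeJA, and a negative one a smaller rise or a larger fall. The balance of signs depended on the scaling, with 962 positive and 1355 negative after median centring of the libraries and 1095 positive and 1100 negative after quantile normalization. Large interactions were few. An absolute value of at least 1 was reached by 237 genes (0.973%) and of at least 2 by 13. The standard error of an interaction had a median of 0.21. The 95% confidence interval lay between -1 and 1 for 85% of genes and between -0.5 and 0.5 for 23.4%.

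To describe which changes were smaller or larger with MeJA, genes were first sorted by their mean change over time in the 2 treatments. In limma, 14859 genes (61%) passed an adjusted p of 0.05, 4780 upward (19.6%) and 10079 downward (41.4%). This mean weighs the treatments equally, but it rests on the same 8 libraries as the interaction, so the counts that follow are a description. The median gene moved by -0.17 over time, and the balance of rises and falls was 6995 to 6385 after median centring and 6148 to 7414 after quantile normalization.

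On the values as deposited, genes that fell with time had, at the median, a slightly smaller fall in MeJA-treated cuttings. The difference for genes that rose was within the spread between replicates. This contrast between falls and rises depended on the scaling. Among the 10079 genes that fell, the median change was -0.51 with MeJA and -0.58 without. Their median interaction was 0.0885 ± 0.053, where the error combines the differences between the replicate libraries of the 4 groups, and 65.2% had a smaller fall with MeJA. Over all genes tested the median interaction was 0.0457 ± 0.019 and 57.4% were positive. Among the 4780 genes that rose, the median change was 0.6 with MeJA and 0.63 without. Their median interaction was -0.0334 ± 0.044, which is smaller than its error, and 54.9% had a smaller rise with MeJA, where 42.6% of all genes tested were negative. The genes not called over time had a median of 0.0316 ± 0.018. Both lists kept their sign after quantile normalization (-0.065 for rises and 0.059 for falls) and after median centring (-0.08 and 0.047), although those scalings moved the median of all genes to -0.0024 and -0.021. With either scaling the median for rises was then the larger in size. After median centring 63.1% of rising genes had a smaller rise and 57.1% of falling genes a smaller fall. After quantile normalization these shares were 60.6% and 59.6%. Errors of the scaled medians were not computed.

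The position of each library was compared at each time. Both times contributed to these small differences. Over the falling genes the median of MeJA minus untreated was -0.052 at 0.5 h and 0.041 at 1 h. Over the rising genes it was 0.013 at 0.5 h and -0.03 at 1 h. Over the 10079 falling genes, the median deviation from the gene's own mean was 0.263 and 0.25 in the MeJA 0.5 h libraries, against 0.313 and 0.296 in the untreated 0.5 h libraries. The 2 treatments did not overlap at 0.5 h, and the MeJA libraries stood nearer to the 1 h level. At 1 h the values were -0.264 and -0.253 with MeJA, against -0.248 and -0.344 in untreated cuttings. There the MeJA libraries lay between the 2 untreated ones, which were 0.0958 apart. Over the 4780 rising genes the MeJA libraries stood at 0.323 and 0.282 at 1 h, against 0.281 and 0.356 without MeJA. At 0.5 h they stood at -0.301 and -0.316, against -0.331 and -0.321 without. The treatments overlapped at 1 h for rises. At 0.5 h they did not, but the nearest libraries, at -0.316 and -0.321, were closer together than the MeJA replicates, which were 0.0147 apart. With 2 libraries a group a lack of overlap is common. At 0.5 h it was found for 36.5% of all genes tested. Over all genes the deviations at 0.5 h were 0.0771 and 0.0649 with MeJA, against 0.0916 and 0.102 without, a difference of the same sign as that of the falling genes.

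**Figure D1:**
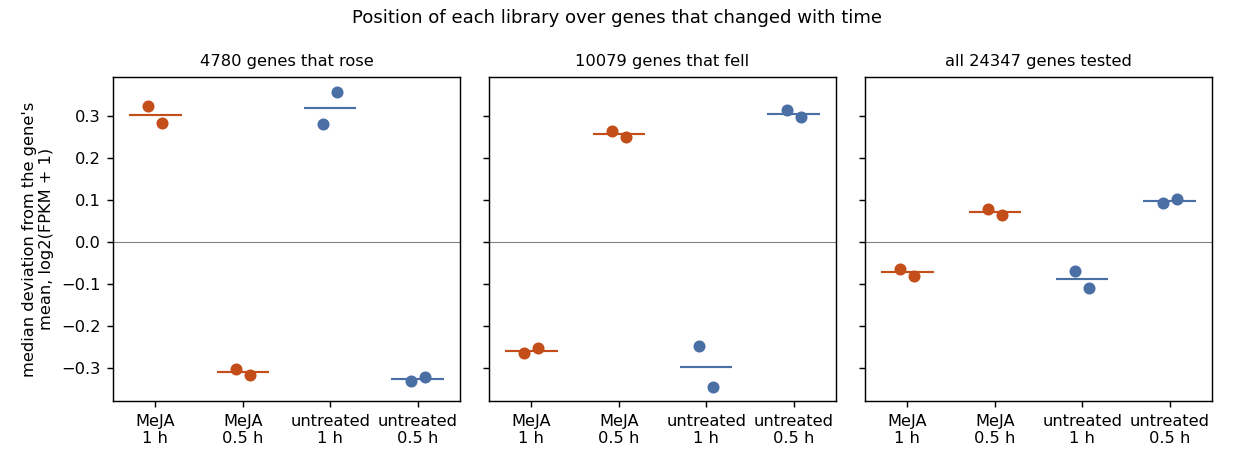
Median deviation of each library from the mean of a gene over 8 libraries (y axis, log2(FPKM + 1)), for the genes that rose, those that fell and all genes tested, with 1 point per library and a line at the mean of the group. The MeJA 0.5 h libraries lie nearer to 0 than the untreated 0.5 h libraries in the 3 panels, while at 1 h the untreated libraries stand 0.0758 (rising genes) and 0.0958 (falling genes) apart.

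The median difference between treatments was larger in bins of larger changes over time. Of the 99 genes whose mean change was below -2, 76.8% had a positive interaction, with a median of 0.24 ± 0.12 and median changes of -2.12 with MeJA and -2.45 without. In the 1234 genes from -2 to -1 the median interaction was 0.22 ± 0.089, and 74.1% were positive. It was 0.1 ± 0.063 for the 4304 genes from -1 to -0.5 and 0.0479 ± 0.029 for the 10050 genes from -0.5 to 0. It was 0.0146 ± 0.019 for the 5681 genes from 0 to 0.5, of which 52.6% were positive. On the rising side the median was -0.0331 ± 0.047 for the 1760 genes from 0.5 to 1 and -0.0898 ± 0.088 for the 970 genes from 1 to 2. Of the 249 genes above 2, 69.1% had a smaller rise with MeJA, with a median of -0.18 ± 0.19 and median changes of 2.3 with MeJA and 2.51 without. On the values as deposited, the medians exceeded their error in each of the 4 bins below 0. From 0 to 0.5 the median was positive, which for rises means larger with MeJA, and within its error. Above 0.5 the median was about as large as its error from 1 to 2 and smaller than its error in the other 2 bins. When each library was left out, the median of genes with a mean change of at least 1 was -0.208, without untreated 1 h replicate 1, to -0.0318, without MeJA 1 h replicate 2, against -0.109 with all. For genes at -1 or lower it was 0.154, without untreated 1 h replicate 2, to 0.326, without untreated 1 h replicate 1, against 0.224 with all. After median centring the median was -0.161 for genes with a mean change of at least 1 and 0.182 for genes at -1 or lower. After quantile normalization these medians were -0.135 and 0.208. Bin medians and their errors are not given for either scaling, so the contrast between the bins of falls and rises holds only for the values as deposited.

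Genes with an unadjusted interaction p under 0.05 followed the same order. They made up 34.3% of the 99 genes below -2 and 23.3% of those from -2 to -1, against 9.32% of all genes tested. Above 2 they made up 19.3%, of which 47 genes had a smaller rise and 1 gene a larger rise. From -2 to -1, 257 genes had a smaller fall and 30 a larger fall.

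**Figure D2:**
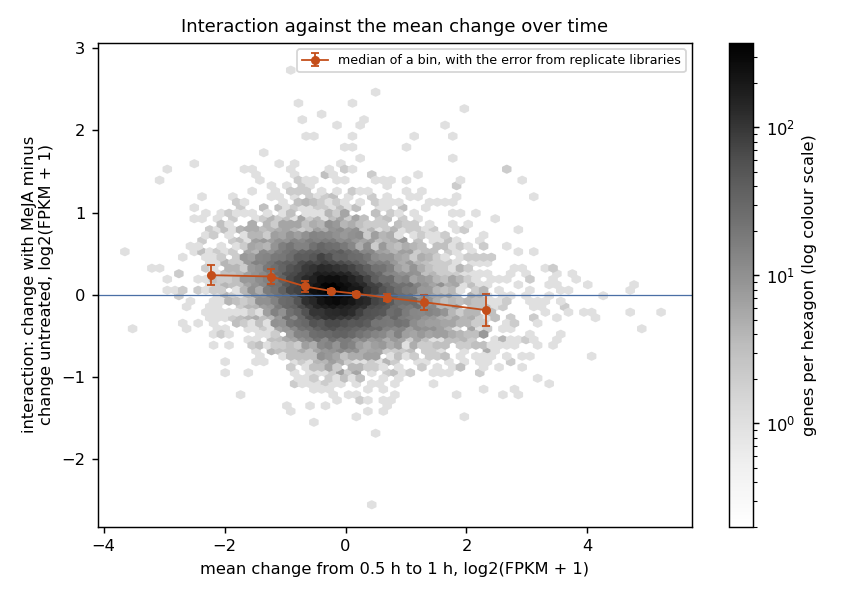
Interaction of each of the 24347 genes (y axis, log2(FPKM + 1)) against its mean change from 0.5 h to 1 h over both treatments (x axis, log2(FPKM + 1)), as hexagons shaded by the number of genes on a log scale. Points with error bars are medians of 8 bins, which are 0.24 for the strongest falls and -0.18 for the strongest rises, with errors that combine the differences between replicate libraries.

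Smaller and larger changes were then divided by the time at which the treatments stood further apart. A smaller change with the wider gap at 0.5 h is called earlier, since the MeJA libraries at 0.5 h lay on the side of the change. A smaller change with the wider gap at 1 h is called less complete by 1 h. A larger change is called a later start where the gap was wider at 0.5 h, and further by 1 h where it was wider at 1 h. The names say only where the gap lay, and the division took no account of the error of the gaps. No library from before 0.5 h was analysed here, so a movement before 0.5 h and a standing difference between the treatments cannot be told apart. These classes were formed within the 1667 genes that were called over time and had an unadjusted interaction p under 0.05. None of them passed the adjusted test, so the classes describe values and are not lists of genes shown to respond to MeJA. Another 601 genes with an interaction p under 0.05 were not called over time.

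Smaller changes outnumbered larger ones, with 1273 genes against 394, and did so when each library was left out. The groups are then unequal, so the mean change used for sorting and the interaction share error. Leaving out a library is therefore no independent check of the ratio of smaller to larger changes. The ratio was lowest, at 909 to 511, without MeJA 1 h replicate 2. With all libraries, 732 genes were classed as earlier, 541 as less complete by 1 h, 208 as later starts and 186 as further by 1 h. The order of the first pair turned with single libraries. Earlier and less complete genes numbered 563 and 905 without untreated 1 h replicate 1, 455 and 517 without MeJA 1 h replicate 1, and 407 and 502 without MeJA 1 h replicate 2. Among rising genes, 266 rose earlier, 114 rose less completely by 1 h, 66 were later starts and 107 went further. Falling genes comprised 466 that fell earlier, 427 that fell less completely, 142 later starts and 79 that went further. As a share of their direction, earlier genes were 5.56% of rises and 4.62% of falls. After median centring the counts moved to 278 earlier and 243 less complete falls and to 423 earlier and 234 less complete rises. With a pseudocount of 0.1, falls were 400 earlier and 489 less complete. Leaving out 1 library moved the number of earlier rises between 141, without untreated 1 h replicate 2, and 402, without untreated 0.5 h replicate 2. Earlier falls numbered 244, without MeJA 1 h replicate 2, to 594, without untreated 0.5 h replicate 1. Less complete falls numbered 268, without MeJA 0.5 h replicate 1, to 704, without untreated 1 h replicate 1.

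**Figure D3:**
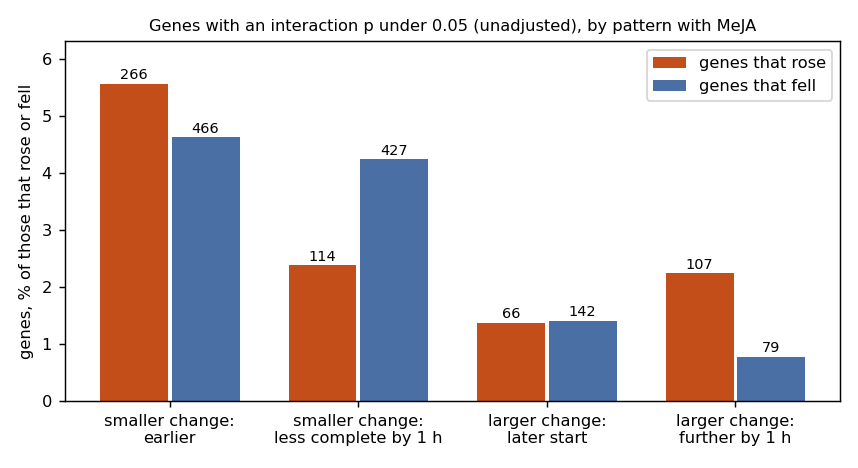
Number of genes with an unadjusted interaction p under 0.05 in each pattern, as a share of the 4780 genes that rose or the 10079 that fell (y axis, %), with the count above each bar. With all libraries and a pseudocount of 1, earlier changes are the tallest bars, at 266 rising and 466 falling genes; among falls, less complete changes are more numerous with a pseudocount of 0.1 and, at 704 against 372 earlier, without untreated 1 h replicate 1.

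The 266 genes that rose earlier had a median rise of 0.58 with MeJA and 1.19 without. Their levels with MeJA exceeded those without by a median of 0.37 at 0.5 h and lay below them by a median difference of -0.18 at 1 h. The MeJA and untreated libraries did not overlap at 0.5 h for 263 of these genes (against 36.5% over all genes tested), a count that follows from how they were chosen. They were also the most abundant class, with a median level of 33.9 FPKM against 7.96 FPKM over all genes, and 63.5% had a single isoform listed, against 51.1% of all genes.

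Potri.014G022200, on chromosome 14, led the earlier rises. It had 8.9 and 11.5 FPKM in the MeJA 1 h libraries and 15 and 12 FPKM in the MeJA 0.5 h libraries, against 10.3 and 14.5 FPKM in untreated 1 h and 3.63 and 4.86 FPKM in untreated 0.5 h libraries. The untreated 0.5 h libraries were the lowest, and the untreated 1 h libraries overlapped with both MeJA groups. The interaction was -1.72 ± 0.27 (SE; limma adjusted p = 0.219), from a change of -0.37 with MeJA and 1.35 without. Its mean change over time was 0.49 (limma adjusted p = 0.0116), while the change with MeJA was not a rise and did not pass (limma adjusted p = 0.151).

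Potri.009G010200, on chromosome 9, fell in the same class at a higher level and had the next smallest p among negative interactions. It had 109 and 107 FPKM at MeJA 1 h and 81.6 and 90.9 FPKM at MeJA 0.5 h, against 153 and 137 FPKM at untreated 1 h and 62.1 and 55.3 FPKM at untreated 0.5 h. The 4 groups did not overlap, and both MeJA groups lay between the untreated ones. It rose with MeJA by 0.32 and without by 1.29, an interaction of -0.97 ± 0.16 (SE; limma adjusted p = 0.219). MeJA minus untreated was 0.55 at 0.5 h and -0.42 at 1 h (SE 0.11 each). Which gap was wider is within the error of the difference between them, so the class of Potri.009G010200 is not settled.

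The 466 genes that fell earlier had a median change of -0.5 with MeJA and -1.11 without. At 0.5 h their levels with MeJA differed from those without by a median of -0.37, and at 1 h by 0.2. Their median level was 8.03 FPKM, close to that of all genes. As for the earlier rises, the choice of these genes fixes that the treatments rarely overlapped, which was so at 0.5 h for 459 (against 36.5% over all genes tested) and at both times for 311 (against 13.8%).

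Potri.017G030100, on chromosome 17, led the earlier falls. This gene's gap, MeJA minus untreated, was -0.68 at 0.5 h and 0.66 at 1 h (SE 0.15 each). The sizes differ by less than the error, so the class of Potri.017G030100 is not settled. Its values were 6.81 and 6.03 FPKM at MeJA 1 h and 9.46 and 7.04 FPKM at MeJA 0.5 h, against 3.95 and 3.45 FPKM at untreated 1 h and 14 and 13.5 FPKM at untreated 0.5 h. The untreated 0.5 h libraries were the highest and the untreated 1 h libraries the lowest, with the 4 MeJA libraries in between. The change over time was -0.31 with MeJA, which did not pass (limma adjusted p = 0.113), and -1.65 without, an interaction of 1.34 ± 0.21 (SE; limma adjusted p = 0.219).

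The 427 genes that fell less completely by 1 h had a median change of -0.44 with MeJA and -1.05 without, and at 1 h stood above the untreated level by a median of 0.38. Their median level was 10.3 FPKM. At 1 h the libraries of the treatments did not overlap for 421 of them (against 36% over all genes tested), which again follows from their choice. This class held the 2 positive interactions of smallest p among genes that averaged 5 FPKM or more.

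Potri.001G167600, on chromosome 1, had 6.07 and 6.61 FPKM at MeJA 1 h and 7.81 and 7.35 FPKM at MeJA 0.5 h, against 3.55 and 3.07 FPKM at untreated 1 h and 10.3 and 11.3 FPKM at untreated 0.5 h. The 4 groups did not overlap, and the MeJA groups again lay inside the range of the untreated ones. The interaction was 1.23 ± 0.17 (SE; limma adjusted p = 0.219). The fall was -1.46 without MeJA, and the difference over time of -0.22 with MeJA did not pass (limma adjusted p = 0.163).

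Potri.015G087700, on chromosome 15, had 22 and 24.7 FPKM at MeJA 1 h and 36.6 and 46.5 FPKM at MeJA 0.5 h, against 11.2 and 15 FPKM at untreated 1 h and 68.5 and 64.4 FPKM at untreated 0.5 h. The 4 groups did not overlap, with both MeJA groups inside the range of the untreated ones. It fell in both treatments, by a log2 change of -0.8 with MeJA and -2.27 without, an interaction of 1.48 ± 0.22 (SE; limma adjusted p = 0.219). For this gene MeJA minus untreated was -0.67 at 0.5 h and 0.8 at 1 h (SE 0.15 each), so which gap was wider is within the error. Its 2 isoforms moved alike. Isoform 1, with 56.1% of the gene's signal, stood at 12.1 and 12.8 FPKM at MeJA 1 h and 21.3 and 26.7 FPKM at MeJA 0.5 h, against 6.08 and 8.1 FPKM at untreated 1 h and 37.4 and 37.5 FPKM at untreated 0.5 h.

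The 114 genes that rose less completely by 1 h had a median rise of 0.44 with MeJA and 1.06 without, and a median level of 18.1 FPKM. At 1 h they stood below the untreated level by a median difference of -0.35. Potri.017G117600, on chromosome 17, led them. It had 12.2 and 11 FPKM at MeJA 1 h and 10.2 and 13.7 FPKM at MeJA 0.5 h, against 19.1 and 19.4 FPKM at untreated 1 h and 8.8 and 6.17 FPKM at untreated 0.5 h. The MeJA libraries of the 2 times overlapped, and the untreated ones did not. MeJA minus untreated was 0.62 at 0.5 h and -0.69 at 1 h (SE 0.17 each), so which gap was wider is within the error. The interaction was -1.31 ± 0.24 (SE; limma adjusted p = 0.219).

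Larger changes with MeJA were fewer with all libraries. Among rises this turned without MeJA 1 h replicate 2, where 265 were smaller and 301 larger, 256 of the larger ones going further by 1 h. The 107 genes that rose further by 1 h had a median rise of 0.95 with MeJA and 0.31 without. Potri.006G013900, on chromosome 6, led them, with 17.2 and 15.2 FPKM at MeJA 1 h and 4.33 and 4.84 FPKM at MeJA 0.5 h, against 7.61 and 10.5 FPKM at untreated 1 h and 6.83 and 6.94 FPKM at untreated 0.5 h. The MeJA libraries were the 2 highest at 1 h and the 2 lowest at 0.5 h. It rose by 1.63 with MeJA, and the difference of 0.34 without MeJA did not pass (limma adjusted p = 0.084). The interaction was 1.29 ± 0.21 (SE; limma adjusted p = 0.219). Each of its 5 isoforms was higher in the 2 MeJA 1 h libraries than in the other 6.

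The 79 genes that fell further by 1 h had a median change of -0.9 with MeJA and -0.3 without. Potri.010G144900, on chromosome 10, led them at a weaker interaction of -0.64 ± 0.16 (SE; limma adjusted p = 0.301). Its values were 7.32 and 6.82 FPKM at MeJA 1 h and 12.8 and 15 FPKM at MeJA 0.5 h, against 9.05 and 9.39 FPKM at untreated 1 h and 11.4 and 10.7 FPKM at untreated 0.5 h. The MeJA libraries were lowest at 1 h and highest at 0.5 h. MeJA minus untreated was -0.34 at 1 h and 0.3 at 0.5 h (SE 0.11 each), so which gap was wider is within the error.

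The classes called later start were led by Potri.002G127800 among falls and Potri.008G070800 among rises. Neither gene had a change over time in untreated cuttings that passed, so for both the name says only that the estimated gap was wider at 0.5 h than at 1 h. Potri.002G127800, on chromosome 2, had 7.19 and 5.94 FPKM at MeJA 1 h and 14.6 and 14 FPKM at MeJA 0.5 h, against 8.05 and 9.69 FPKM at untreated 1 h and 7.16 and 8.7 FPKM at untreated 0.5 h. The MeJA 0.5 h libraries alone stood apart. This gene fell by 1.03 with MeJA and had a difference of 0.14 without, which did not pass (limma adjusted p = 0.414). Its interaction was -1.17 ± 0.2 (SE; limma adjusted p = 0.219), and its place among the falls rests on the mean of the treatments.

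Potri.008G070800, on chromosome 8, had 11.8 and 13.3 FPKM at MeJA 1 h and 6.83 and 5.69 FPKM at MeJA 0.5 h, against 9.46 and 8.92 FPKM at untreated 1 h and 7.54 and 10.2 FPKM at untreated 0.5 h. The MeJA libraries were the 2 highest and the 2 lowest, and the untreated libraries of the 2 times overlapped. It rose by 0.9 with MeJA, and the difference of 0.061 without MeJA did not pass (limma adjusted p = 0.755). The interaction was 0.84 ± 0.21 (SE; limma adjusted p = 0.295). MeJA minus untreated was -0.43 at 0.5 h and 0.41 at 1 h for this gene (SE 0.15 each), so which gap was wider is within the error. Over the class, the 66 rising genes had a median level of 8.21 FPKM and the 142 falling ones 16.5 FPKM.

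**Figure D4:**
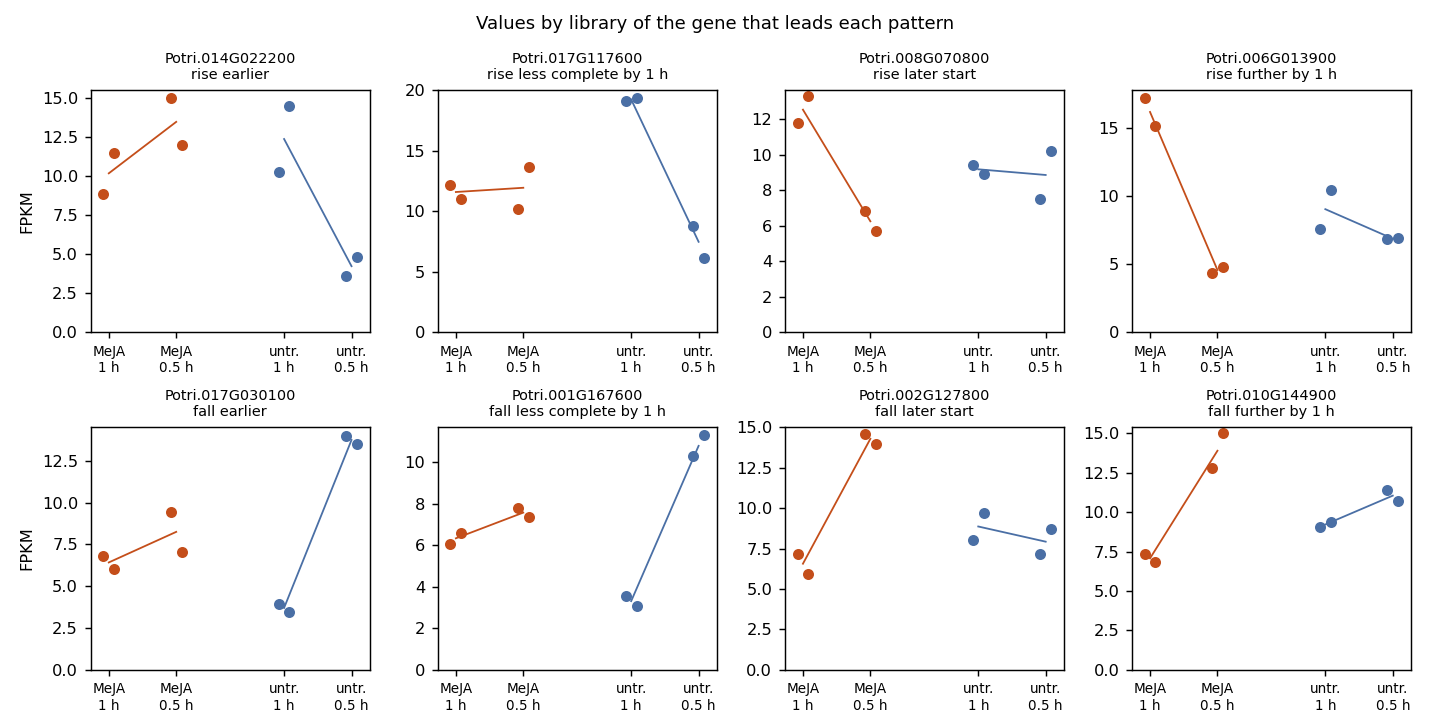
FPKM (y axis) in each of the 8 libraries for the gene of smallest interaction p in each of the 8 patterns (mean of 5 FPKM or more), with 1 point per library and lines between the means of the times. In the 4 panels of smaller changes the MeJA line is flatter than the untreated line, and in the 4 panels of larger changes it is steeper.

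The share of genes with an interaction p under 0.05 varied with level. It was 7.05% below 2 FPKM, 9.3% from 5 to 20 FPKM and 13.6% at 50 FPKM or more. In the most abundant group, 97 genes had a positive and 197 a negative interaction, with a median over the group of -0.0304 ± 0.038, whereas from 5 to 20 FPKM 641 were positive and 254 negative. Genes with a single isoform listed reached 10.4% and those with 4 or more 8.15%. By chromosome the share lay between 7.62% on chromosome 3 and 11.7% on chromosome 13. These differences were not tested.

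A call over time in 1 treatment and not in the other does not show that the treatments differed. In limma 10546 genes (43.3%) were called over time with MeJA and 11830 (48.6%) without. Of 1970 genes called with MeJA only, 391 (19.8%) had an unadjusted interaction p under 0.05, and of 3254 called in untreated cuttings only, 702 (21.6%). None passed the adjusted test of the interaction in limma. Calls in opposite directions were made for 11 genes, 5 of which rose with MeJA and fell without it, while 6 fell with MeJA and rose without it. Their adjusted interaction p lay between 0.219 and 0.305 in limma.

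The counts of smaller changes depended on single libraries. With a library left out, the mean change and the interaction share error, as stated above. The share of rising genes with a smaller rise was 50.6% without untreated 1 h replicate 2 and 50% without MeJA 1 h replicate 2, and 63.8% without untreated 1 h replicate 1. The share of falling genes with a smaller fall was 58.1% without untreated 1 h replicate 2, 73.2% without untreated 1 h replicate 1 and 62% to 67.5% without each of the other libraries. The interaction was called for 9 genes without MeJA 1 h replicate 2 and for 1 gene when MeJA 0.5 h replicate 1 or untreated 0.5 h replicate 1 was left out. Of the 2268 genes with an unadjusted p under 0.05, 58.8% to 72.6% kept their sign and a p under 0.05 when a library was left out.

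**Figure D5:**
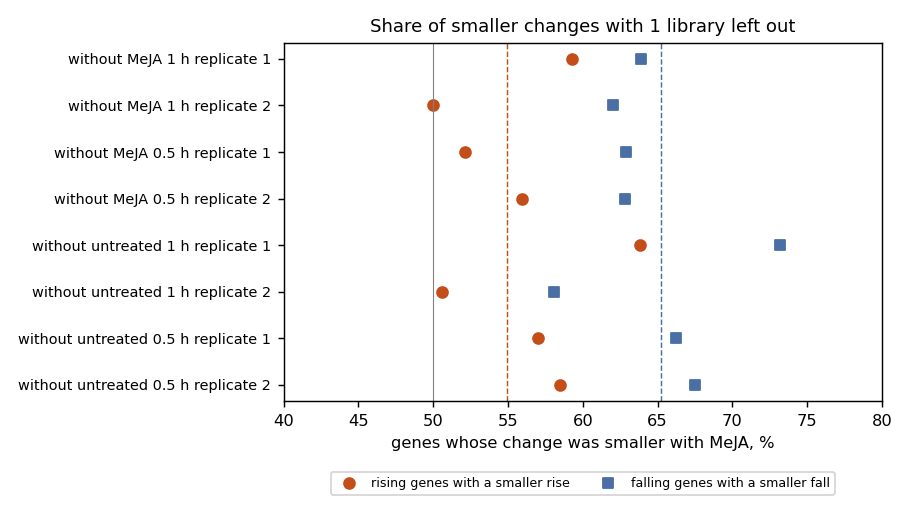
Share of genes whose change over time was smaller with MeJA (x axis, %, from 40 to 80) when each of the 8 libraries was left out in turn (rows), for genes that rose (circles) and fell (squares); dashed lines are the shares with all libraries, 54.9% and 65.2%. The falling genes stay above 50% in each row, and the rising genes come to 50% without MeJA 1 h replicate 2.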

How the data were processed

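Each of the 8 deposited tables lists 65535 transcripts and ends within chromosome 17; later identifiers were not analysed here. Neither the file headers nor the labels name the unit of the values. They were read as FPKM, as deposited by the authors, because they are not whole and not logged. They also sum to about the same total in each library. These properties do not tell FPKM from other units scaled by transcript length and library size, so the unit is an assumption. The submitters' processing notes name Bowtie2 2.2.3 and HISAT2 2.1.0 without their roles. The sources used here do not give the quantification tool, build, annotation or strand. Reads shared by paralogs or overlapping genes were not resolved.

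Gene sums were taken as log2(FPKM + 1), which understates changes of genes with low values, and fitted as 4 group means in R 4.3.3 with limma 3.58.1, using a trended variance prior and robust moderation. The fit was tested on simulated data. P-values were adjusted over all 24347 genes and called at 0.05. The members and classes were chosen with earlier results of these data known. For identifiers without names, the rule named the 2 genes of smallest interaction p per direction among those averaging 5 FPKM or more; the leader of each pattern was added after values were seen. Alternatives were other pseudocounts, filters, scalings, a plain variance prior, a replicate block, transcripts, and leaving out each library.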

Additional observations from a re-analysis of the deposited data

How the results depend on the processing

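With the replicate numbers as a replicate block, 0 genes were called for the interaction and 0 for MeJA at either time, and the median interactions were -0.0335 for rises and 0.0887 for falls. Deviations of same-numbered libraries correlated at -0.116 to 0.0328, so no pairing by number was seen in the values. Whether the numbers were paired in harvest or culture is not known. With the MeJA 1 h numbers crossed, a fit added after the data were seen, the interaction again had 0 calls. Leaving out each library gave 0 to 9 calls for the interaction, 0 to 1 for MeJA at 0.5 h and 0 to 46 for MeJA at 1 h. The 9 and the 46 came without MeJA 1 h replicate 2, where the variance of the single MeJA 1 h library left is taken from the other groups, and the 1 for MeJA at 0.5 h came without MeJA 0.5 h replicate 1 or without either untreated 0.5 h library. The median interaction was then -0.0924 to -0.00025 for rises and 0.0562 to 0.155 for falls. Median centring moved it to -0.0804 for rises. The other settings run (a pseudocount of 0.1, no filter, a filter of 5 FPKM, quantile normalization, a plain variance prior) and 47164 transcripts in place of genes also gave 0 interaction calls, and the transcripts had 3971 unadjusted p under 0.05 (8.42%). The named genes kept their sign and stayed uncalled in 150 of 150 tries. They were chosen for a small interaction p in these same libraries, so the kept sign follows largely from that choice. DESeq2 was not run because the files hold no counts. Depth is unknown, and 8943 of the genes tested average less than 5 FPKM, where the log2(FPKM + 1) scale compresses differences.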

Other observations

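The 9 genes called for the interaction without MeJA 1 h replicate 2 were high in MeJA 1 h replicate 1 alone. Potri.009G140400, which had the largest interaction of them and was named after its values were seen, had 107 FPKM in MeJA 1 h replicate 1 and 0.718 FPKM in replicate 2, 0.196 and 0.755 FPKM in the MeJA 0.5 h libraries, and 0.379 to 1 FPKM in the 4 untreated libraries. With all 8 libraries its interaction was 2.8 ± 2.9 (SE) with an unadjusted p of 0.387 in limma. Whether this library differed in treatment, tissue or handling was not tested.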
